A study of Mus musculus with 6 samples.

Results

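Syndecans and glypicans were followed in PA6 cells, a murine stromal cell line, after 3 h with FGF2 or with BMP4. The set was drawn up by gene name, though with earlier results of these data known. It comprises the syndecans SDC1, SDC2, SDC3 and SDC4 and the glypicans GPC1, GPC2, GPC3, GPC4 and GPC6, which are 9 of 30854 gene names and 14 of 45281 probes on the array. FGF2 raised SDC1 by a log2 fold change of 1.02 (SE 0.21, 2 arrays per group) and GPC1 by 0.54 (SE 0.15). With BMP4 no syndecan or glypican passed the test, and of all 11872 genes tested only 1 did. The other 5 detected members passed the test in neither condition, and GPC2 and GPC3 were not detected on any array.

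Confluent monolayers of pure PA6 cells were kept for 3 h in serum-free medium and 3 groups were formed. The -GFs group received no growth factor, the FGF2 group received 20 ng/ml of recombinant FGF2 and the BMP4 group received 10 ng/ml of recombinant BMP4. A different BMP4 dose is stated for co-cultures of PA6 with embryonic stem (ES) cells, where PA6 cells serve as feeder layer, and the species of the factors is stated for co-cultures only. Each group had 2 replicates with 1 array each, 6 Illumina MouseWG-6 v2.0 BeadChip arrays in all, and a replicate number stands for a set of wells treated in parallel with one another. All groups share the line, the serum-free medium and the time.

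Syndecans and glypicans are the cell surface proteoglycans that carry heparan sulfate, a long sulfated sugar chain. Syndecans span the membrane and bind cytoskeletal and scaffold proteins with their short tails, whereas glypicans are held by a lipid anchor and have no tail. Heparan sulfate binds FGF2 and joins it to its tyrosine kinase receptors, and it also binds BMPs, WNTs and their antagonists, so that these core proteins act as co-receptors or as traps of growth factors.

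The promoter of SDC1 is shown because SDC1 was the member called with FGF2, and that of SDC4, the syndecan of focal adhesions, because its FGF2 value lay near 0. Both windows run from 250 bases before to 50 bases after the start of the gene, 5′ to 3′ along the gene, and come from the RefSeq promoter table of GRCm38.p6. SDC1 lies on the plus strand at chr12:8771146-8771445 and SDC4 on the minus strand at chr2:164443139-164443438. Capitals mark GC boxes, the letters GGGCGG, which were searched on both strands.
SDC1: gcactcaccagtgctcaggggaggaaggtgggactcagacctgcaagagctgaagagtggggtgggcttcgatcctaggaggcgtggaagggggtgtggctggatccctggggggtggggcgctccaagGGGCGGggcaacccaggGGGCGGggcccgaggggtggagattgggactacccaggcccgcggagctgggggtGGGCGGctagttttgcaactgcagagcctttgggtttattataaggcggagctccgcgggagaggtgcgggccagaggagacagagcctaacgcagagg
SDC4: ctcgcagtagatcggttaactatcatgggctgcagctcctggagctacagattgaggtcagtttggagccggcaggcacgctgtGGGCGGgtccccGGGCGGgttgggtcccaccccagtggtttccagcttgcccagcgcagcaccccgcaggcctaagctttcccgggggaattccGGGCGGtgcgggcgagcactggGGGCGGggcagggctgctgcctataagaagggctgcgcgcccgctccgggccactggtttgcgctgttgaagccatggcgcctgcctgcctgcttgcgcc
The window of SDC1 held 3 GC boxes at 66.3% GC and that of SDC4 held 4 at 67.7% GC. GC boxes occur in 35.7% of the 32851 promoters of the table, and this motif was added after the sequences had been read. The table holds the promoters of 6 members (SDC1, SDC3, SDC4, GPC2, GPC3 and GPC4). These were also searched on both strands for AP-1 (TGANTCA, in 7.81% of all promoters), EGR (GCGNGGGCG, 5.55%), ETS (CCGGAAG, 8.86%), a BMP SMAD motif (GGCGCC, 11.9%), an E-box (CACGTG, 7.15%) and TATAAA (13.6%), of which the EGR motif can overlap a GC box. The window of SDC1 holds none of these 6 motifs. SDC4 and GPC4 hold the SMAD letters at 1 place each and GPC3 holds the EGR letters at 1 place.

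For every probe the authors deposited the bead intensity on each array before normalization, beside a p-value of detection. A probe was taken as detected at a detection p under 0.05, which held for 15509 to 16459 probes per array, and the median intensity was 153.4 to 168.1. Each gene was represented by its brightest detected probe, and 11872 genes were tested with limma on log2 normalized intensity. A gene passed the test at an adjusted p under 0.1 and was called modulated if its log2 fold change also exceeded 1 in size. Both factors acted on these cells: DUSP6, an ERK phosphatase induced by FGF signalling, rose by 3.55 with FGF2 (SE 0.25, adjusted p = 0.00305), and ID1, a target of BMP SMADs, rose by 2.77 with BMP4 (SE 0.16, adjusted p = 0.00941). All 11 stromal markers were detected on all 6 arrays. Of the macrophage markers 4 of 6 were detected on no array, as were 3 of 5 endothelial, 3 of 5 ES cell, 3 of 4 neuronal and 3 of 4 epithelial markers. In such bulk RNA fewer cells with a transcript and less transcript per cell cannot be told apart.

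Of the 14 probes, 7 were detected on all 6 arrays, 2 on some arrays and 5 on none. SDC2, SDC3, SDC4 and GPC1 have 1 probe each, and all 4 probes were detected on every array. SDC1 has 3 probes, of which 2 were detected on every array, and GPC4 has 1 such probe of its 2. GPC6, a glypican of the growing skeleton, was detected on 5 arrays and missed on the array of -GFs replicate 2. GPC2, a glypican of developing neurons, read 111.5 to 146.8 with its 1 probe and was detected on no array. The 3 probes of GPC3, a glypican of embryonic tissues that restrains Hedgehog signalling, read 117.5 to 160.8 and were also undetected throughout. The undetected probe of GPC4 read 121.4 to 147.0. GPC3 and GPC4 are neighbours on chromosome X with 0 coding genes between them in the RefSeq order, and of this pair only the GPC4 probe read above background. In all, 7 genes with 8 probes passed the filter on detection, and each of the 7 is tested below.

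**Figure D1:**
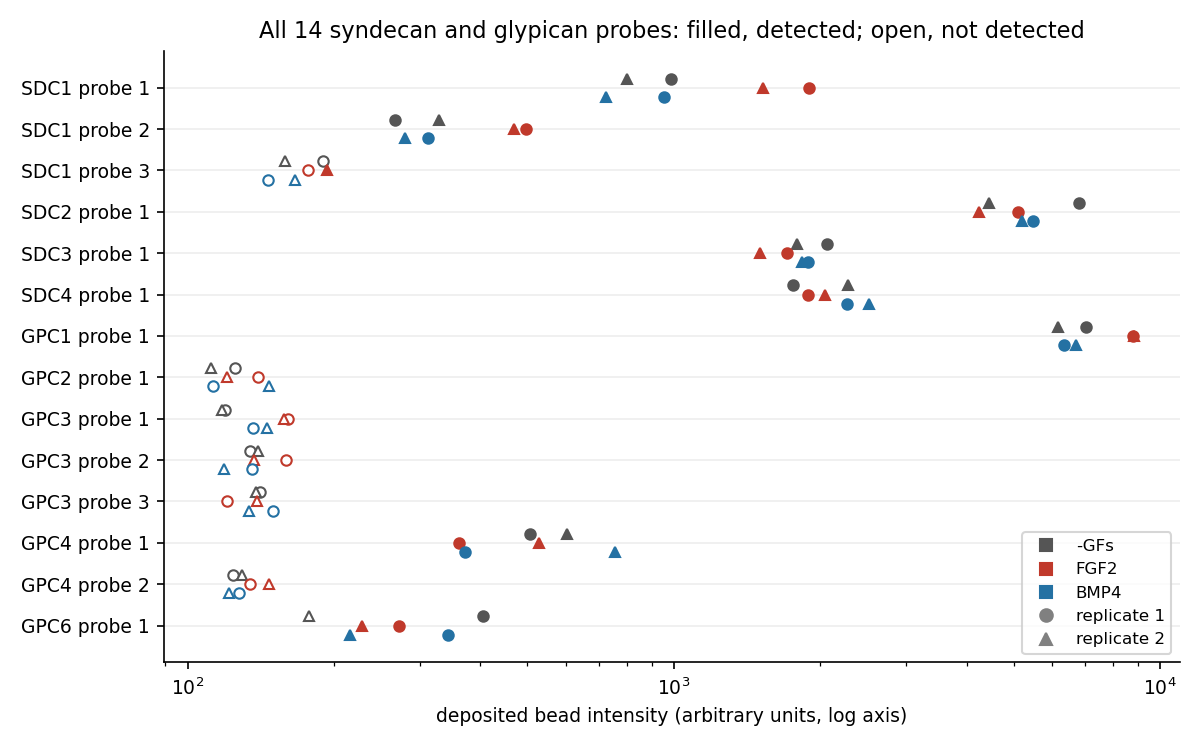
Deposited bead intensity (arbitrary units, log axis) of all 14 syndecan and glypican probes, with 1 symbol per array, colours for the 3 groups, circles for replicate 1 and triangles for replicate 2; filled symbols are detected and open symbols are not. The FGF2 arrays lie to the right of the others for the 2 detected SDC1 probes and for GPC1, while the probes of GPC2 and GPC3 stay at 111.5 to 160.8 in every group. Positions of different probes are not comparable as transcript levels.

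SDC1, the syndecan of epithelia and plasma cells that stromal cells also express, rose with FGF2. Its brightest probe read 986.5 and 802.9 in -GFs medium, 1899.8 and 1523.7 with FGF2 and 953.9 and 726.8 with BMP4. After normalization the log2 intensity was 9.74 and 9.75 in -GFs, 10.89 and 10.64 with FGF2 and 10.00 and 9.49 with BMP4. Both FGF2 arrays lay above all 4 others (24.6% of all genes had both FGF2 arrays above both -GFs arrays and 24.1% above both BMP4 arrays), and the BMP4 arrays lay on either side of the -GFs arrays. The log2 fold change with FGF2 was 1.02 (SE 0.21, 95% interval 0.53 to 1.51, adjusted p = 0.0387), which is a 2.03-fold rise (1.44 to 2.85). By replicate number the rise was 1.15 and 0.89. With the replicate number in the limma model as a block, the adjusted p was 5.79e-05, where 37.7% of all genes passed the test. SDC1 was the 1 member called, where 3.53% of all genes tested were called with FGF2 and 2.28% were called higher. By size of the rise it stood at rank 285 of 11872.

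The other detected probe of SDC1 moved the same way. It read 267.2 and 329.1 in -GFs, 496.8 and 468.1 with FGF2 and 311.8 and 279.8 with BMP4, so that the FGF2 arrays again lay above all others. When every probe was fitted on its own, it rose by 0.77 with FGF2 (SE 0.21, adjusted p = 0.0843) and the brightest probe by 1.02 (adjusted p = 0.04). The dimmest probe of SDC1 read 146.3 to 193.1 and was detected on the array of FGF2 replicate 2 alone. With the mean of the detected probes in place of the brightest, the log2 fold change of SDC1 was 0.89 (adjusted p = 0.0391) and fell short of the threshold on the fold, as it did under median scaling (0.93, adjusted p = 0.0628). The call was lost without any 1 of the 4 arrays compared: the adjusted p was 0.118 without -GFs replicate 1, 0.124 without -GFs replicate 2, 0.216 without FGF2 replicate 1 and 0.178 without FGF2 replicate 2, at log2 fold changes of 0.89 to 1.15.

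With BMP4, SDC1 differed from -GFs by a log2 fold change of 0.00 (95% interval -0.49 to 0.49, adjusted p = 0.999). The 2 pairs gave 0.26 and -0.26. In the direct comparison of the 2 factors, SDC1 was higher with FGF2 than with BMP4 by 1.02 (SE 0.21, adjusted p = 0.0434), where 3.07% of all genes were called. That call was lost without FGF2 replicate 1 (0.89, adjusted p = 0.25), without FGF2 replicate 2 (1.14, adjusted p = 0.217) and without BMP4 replicate 2 (0.76, adjusted p = 0.173).

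GPC1, the most widely expressed glypican, which binds FGF2 through its heparan sulfate chains, also rose with FGF2. It read 7052.1 and 6165.1 in -GFs, 8797.7 and 8819.9 with FGF2 and 6354.7 and 6708.4 with BMP4. The log2 normalized intensities were 12.61 and 12.61 in -GFs, 13.14 and 13.16 with FGF2, and 12.82 and 12.62 with BMP4. Replicates of GPC1 were closer together than those of SDC1 in the FGF2 and BMP4 groups, and the FGF2 arrays lay above all others. The log2 fold change with FGF2 was 0.54 (SE 0.15, 95% interval 0.19 to 0.88, adjusted p = 0.0846), a 1.45-fold rise (1.14 to 1.85), and the pairs gave 0.53 and 0.54. GPC1 thus passed the test without reaching the threshold on the fold, as 11.8% of all genes passed it and 6.03% passed it as higher. The adjusted p rose to between 0.113 and 0.343 when any 1 of the 6 arrays was left out, and was 0.134 under median scaling (0.42) and 0.165 with neqc (0.54).

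BMP4 left GPC1 at a log2 fold change of 0.10 from -GFs (SE 0.15, adjusted p = 0.999). Between the factors GPC1 was 0.43 higher with FGF2 than with BMP4 (SE 0.15, adjusted p = 0.158). This difference passed the test once the replicate number entered the model as a block (adjusted p = 0.0289, but 0.12 with neqc and the block). Of all genes 34.1% passed with the block, against 9.06% without it. For the rise of GPC1 with FGF2 against -GFs, the adjusted p was 0.00734 with the block, where 37.7% of all genes passed. It was 0.0629 with neqc and the block.

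**Figure D2:**
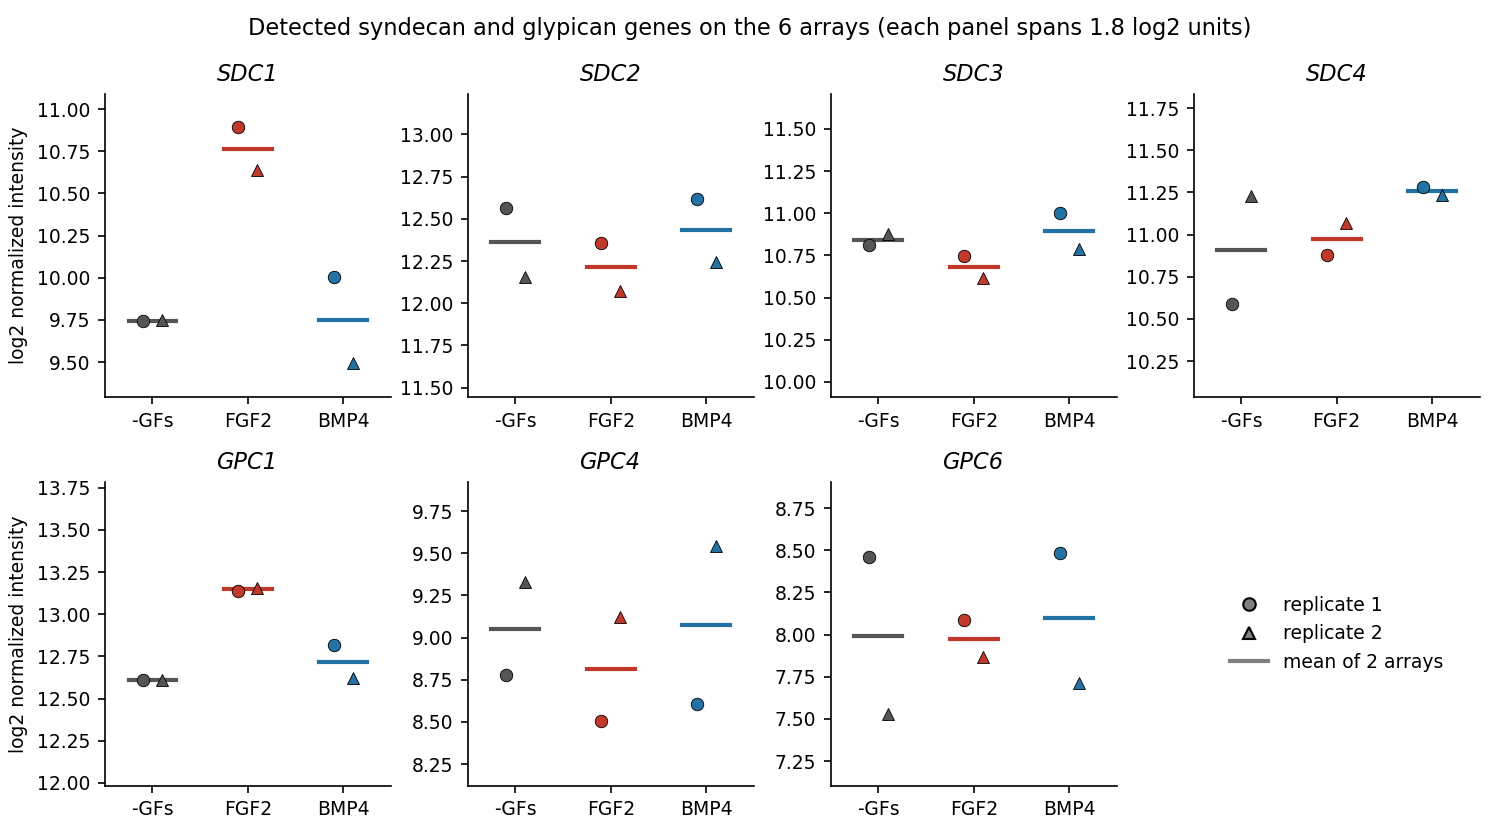
Log2 normalized intensity of the 7 detected syndecan and glypican genes on each of the 6 arrays, with circles for replicate 1, triangles for replicate 2 and a line at the mean of 2 arrays; every panel spans the same log2 range. In SDC1 and GPC1 both FGF2 arrays lie above the other 4, whereas GPC4 and GPC6 part by replicate number in every group.

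The other syndecans showed no difference past the test. SDC2, the syndecan of mesenchymal cells, had log2 intensities of 12.56 and 12.16 in -GFs, 12.36 and 12.07 with FGF2 and 12.62 and 12.25 with BMP4. All 3 groups of SDC2 overlapped, and the log2 fold changes were -0.15 with FGF2 (95% interval -0.66 to 0.37) and 0.07 with BMP4 (-0.44 to 0.58). SDC3, which is best known from nerve and muscle, had 10.81 and 10.88 in -GFs, 10.75 and 10.62 with FGF2 and 11.00 and 10.79 with BMP4. Both FGF2 arrays of SDC3 lay below both -GFs arrays and both BMP4 arrays, as was the case for 29.1% and 28.7% of all genes, and the log2 fold change was -0.16 (95% interval -0.53 to 0.20, adjusted p = 0.583). BMP4 gave 0.05 for SDC3 (-0.31 to 0.41).

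SDC4, the syndecan that signals from focal adhesions, had log2 intensities of 10.59 and 11.23 in -GFs, 10.88 and 11.07 with FGF2 and 11.28 and 11.24 with BMP4. The FGF2 arrays fell between the -GFs arrays, and the log2 fold change with FGF2 was 0.07 (95% interval -0.47 to 0.60, pairs 0.29 and -0.16). Both BMP4 arrays lay above both -GFs arrays, as was the case for 11.2% of all genes. The log2 fold change of SDC4 with BMP4 was 0.35 (95% interval -0.19 to 0.89, adjusted p = 0.999), and it came from 0.69 in the pair of replicate 1 and 0.01 in that of replicate 2. It was the largest BMP4 value among the members, and none of the 7 had an unadjusted p under 0.05 for BMP4 by limma without the block or by the 2-sample t-test with equal variances. Over all 11872 genes, 215 had such a p for BMP4 by limma without the block. With the replicate block in limma, SDC4 had an unadjusted p of 0.0414 and an interval of 0.02 to 0.69 (adjusted p = 0.666).

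The remaining detected glypicans varied more between replicate numbers than between treatments. GPC4, which modulates WNT and BMP signalling, had log2 intensities of 8.78 and 9.33 in -GFs, 8.50 and 9.12 with FGF2 and 8.60 and 9.54 with BMP4. Replicate 2 was the higher array in 3 of 3 groups, and the log2 fold changes of -0.24 with FGF2 (95% interval -1.11 to 0.63) and 0.02 with BMP4 (-0.85 to 0.89) have wide intervals. GPC6 had 8.46 and 7.53 in -GFs, 8.09 and 7.86 with FGF2 and 8.48 and 7.71 with BMP4, with the -GFs array of replicate 2 undetected. Here replicate 2 was the lower array in every group, and the log2 fold changes were -0.02 with FGF2 (-0.87 to 0.84) and 0.10 with BMP4 (-0.75 to 0.96).

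With the block in the model, replicate 2 differed from replicate 1 by 0.70 in GPC4 (SE 0.12, adjusted p = 0.000374), by -0.64 in GPC6 (SE 0.13, adjusted p = 0.00202) and by -0.35 in SDC2 (SE 0.11, adjusted p = 0.0301). The other 4 members did not pass this test (adjusted p of 0.153 or more), and among all genes 28.8% passed it. What differed between the 2 sets of wells is not given in the sources used here, and its part in these values was not tested.

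**Figure D3:**
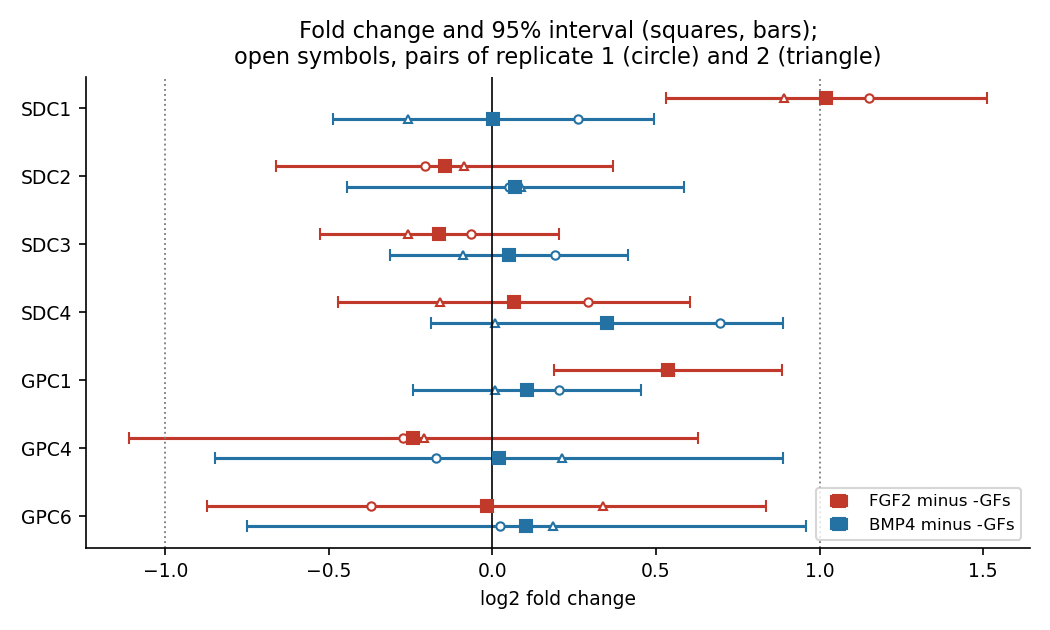
Log2 fold change against -GFs of the 7 detected members, with squares for the limma estimate, bars for its 95% interval and open symbols for the pairs of replicate 1 (circle) and replicate 2 (triangle); dotted lines mark the threshold on the fold. With FGF2 the intervals of SDC1 (0.53 to 1.51) and GPC1 (0.19 to 0.88) lie above 0, and all BMP4 intervals include 0.

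Counted together, 3 of the 7 tested members were higher with FGF2 than in -GFs, with a median log2 fold change of -0.02, which is also the median over all genes tested (-0.02). With BMP4 all 7 estimates were above 0 at a median of 0.07, against 0.002 over all genes, of which 50.4% were higher. But under median scaling SDC1, SDC2, SDC3, GPC1 and GPC4 turned below 0, where the median over all genes was -0.0677. Among them only SDC1 (-0.0822) lay below that median. No member was called with BMP4, as against 1 gene (0.00842%) of all those tested. The replicate block left the members' calls at 1 with FGF2, 0 with BMP4 and 1 between the factors, where it called 3.95%, 0.0842% and 3.51% of all genes. FGF2 and BMP4 were set against the same -GFs arrays, so the 2 sets of values are not independent.

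Other genes of heparan sulfate were examined next, in 4 lists for chain synthesis, chain modification, remodelling and shedding, and other proteoglycans. The lists hold 57 genes, of which 56 are on the array and 37 were tested. With FGF2, 3 of the 37 were called higher (HS6ST1, NDST1 and CD44) and none lower, where 2.28% of all genes were called higher and 1.25% lower. Their median log2 fold change was 0.10. At the adjusted p alone 5 were higher and 1 was lower, where 6.03% of all genes were higher and 5.78% lower. With the replicate block, 10 were higher and 7 lower at the adjusted p alone, where 37.7% of all genes passed, 18.1% as higher and 19.6% as lower. With BMP4 none of the 37 passed the limma test, at a median of 0.04. Of the 37, 2 had an unadjusted p under 0.05 by limma, as had 215 of all 11872 genes, and 1 had one by the t-test.

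Among the 12 tested genes of chain modification, HS6ST1 and NDST1 rose with FGF2. HS6ST1, a sulfotransferase that acts on glucosamine residues of the chain, had log2 intensities of 8.30 and 8.42 in -GFs, 10.30 and 10.93 with FGF2 and 8.22 and 8.73 with BMP4. The FGF2 arrays stood well above the other 4, with a log2 fold change of 2.25 (SE 0.26, adjusted p = 0.00892), which passed the test without any 1 array (1.94 to 2.57). NDST1, the sulfotransferase that starts chain modification, had 10.91 and 11.33 in -GFs, 11.95 and 12.47 with FGF2 and 11.13 and 11.18 with BMP4. Its log2 fold change was 1.09 (SE 0.23, adjusted p = 0.0422), and its other detected probes gave 1.01 and 0.64. The adjusted p of NDST1 was 0.135 without -GFs replicate 1, 0.107 without FGF2 replicate 1 and 0.258 without FGF2 replicate 2. GLCE, the epimerase of the chain, had 0.63 (adjusted p = 0.145, or 0.00401 with the block), and HS6ST2, whose arrays differed strongly by replicate number, had -0.04 (SE 0.65).

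Between the factors, HS6ST1 and NDST1 were called higher with FGF2 than with BMP4, by 2.14 (adjusted p = 0.0106) and 1.06 (adjusted p = 0.0521). In this comparison 2.03% of all genes were called higher and 4.22% passed the test as lower. HS6ST1 passed without any 1 array, while NDST1 was lost without FGF2 replicate 1 (adjusted p = 0.119), FGF2 replicate 2 (0.311), BMP4 replicate 1 (0.174) or BMP4 replicate 2 (0.173). HS3ST3A1, another sulfotransferase, passed as lower with FGF2 than with BMP4 at -0.80 (adjusted p = 0.079). It was lost without -GFs replicate 1 (adjusted p = 0.1), FGF2 replicate 1 (0.313), FGF2 replicate 2 (0.34) or BMP4 replicate 2 (log2 difference -0.53, adjusted p = 0.285). PAPSS1, which makes the sulfate donor, passed as lower at -0.62 (adjusted p = 0.0705), and was lost under median scaling (0.102) and neqc (0.146) and without FGF2 replicate 1 (0.309), FGF2 replicate 2 (0.303), BMP4 replicate 1 (0.218) or BMP4 replicate 2 (0.231).

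None of the 10 tested genes of chain synthesis passed the limma test as higher with FGF2 (1 at an unadjusted p under 0.05), and their median was -0.03. ACPL2, the array's name for the xylose phosphatase PXYLP1, fell by 0.71 (SE 0.16, adjusted p = 0.0524), and did not pass without any 1 of the 4 arrays compared (adjusted p of 0.158 and 0.124 without -GFs replicates 1 and 2, and 0.26 and 0.185 without FGF2 replicates 1 and 2). The chain polymerase genes EXT1 and EXT2 had log2 fold changes of 0.45 (adjusted p = 0.169) and -0.32 (adjusted p = 0.271), and passed with the block (adjusted p = 0.0188 and 0.0932).

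Of the 9 tested genes of remodelling and shedding (median 0.11), TIMP3 and PLAU rose with FGF2 below the threshold on the fold. TIMP3, an inhibitor of the proteases that shed syndecans, rose by 0.99 (SE 0.25, adjusted p = 0.068), and its other detected probes gave 1.13 and -0.03. TIMP3 no longer passed under median scaling (adjusted p = 0.101) or neqc (0.114), nor without -GFs replicate 2 (log2 fold change 0.68, adjusted p = 0.21), FGF2 replicate 1 (0.261) or FGF2 replicate 2 (0.311). PLAU, the urokinase plasminogen activator, rose by 0.72 (SE 0.16, adjusted p = 0.0509), and did not pass without any 1 of the 4 arrays compared (adjusted p of 0.137 and 0.152 without -GFs replicates 1 and 2, and 0.228 and 0.261 without FGF2 replicates 1 and 2). PLAU was also 0.89 higher with FGF2 than with BMP4 (adjusted p = 0.032), which was lost without FGF2 replicate 1 (0.188), FGF2 replicate 2 (0.222) or BMP4 replicate 1 (0.144). The extracellular sulfatases SULF1 and SULF2, which remove sulfate from finished chains, had -0.44 (adjusted p = 0.153) and -0.36 (adjusted p = 0.225), and passed the test with the replicate block (adjusted p = 0.0237 and 0.0569).

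Among 6 tested genes of other proteoglycans (median 0.25), CD44, the hyaluronan receptor that can carry heparan sulfate in some isoforms, was called higher with FGF2. Its log2 intensities were 11.70 and 12.00 in -GFs, 12.98 and 13.34 with FGF2 and 11.59 and 11.73 with BMP4. The log2 fold change was 1.31 (SE 0.19, adjusted p = 0.0162; adjusted p = 0.148 without FGF2 replicate 2), and its other detected probes gave 1.24 and 0.78. The basement membrane proteoglycans HSPG2 and AGRN had 0.21 (adjusted p = 0.544) and -0.54 (adjusted p = 0.214, or 0.00901 with the block). The probes of GPC5, the glypican outside the set, were detected on no array.

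**Figure D4:**
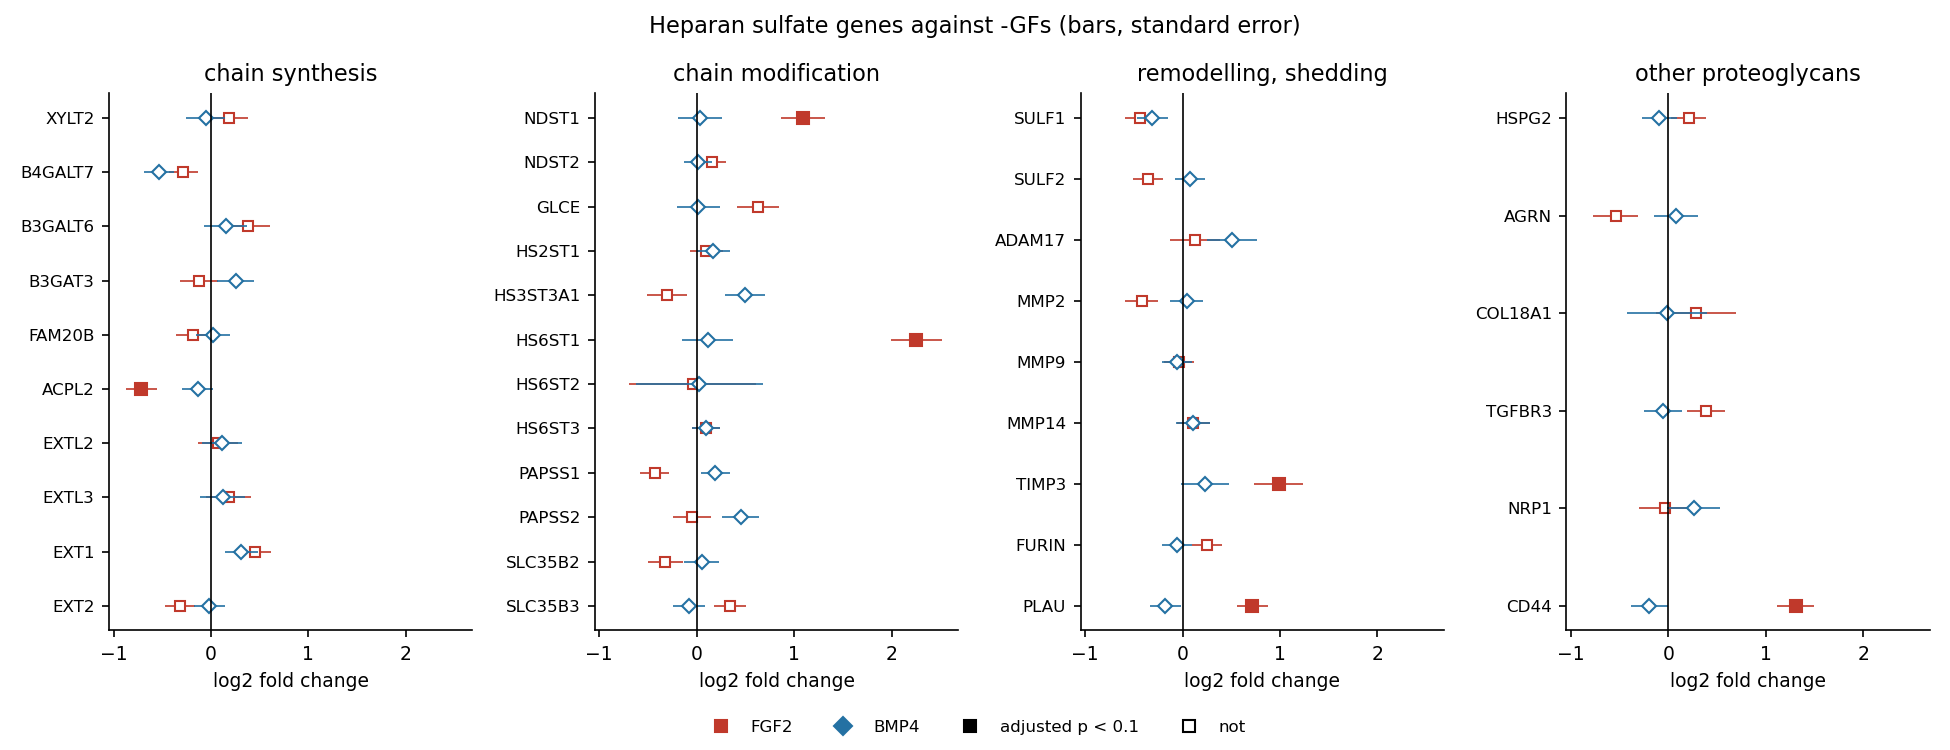
Log2 fold change against -GFs of the 37 tested heparan sulfate genes in 4 lists, with squares for FGF2, diamonds for BMP4, bars for the standard error and filled symbols for an adjusted p under 0.1. Filled symbols are FGF2 only: HS6ST1 (2.25), CD44 (1.31), NDST1 (1.09), TIMP3 (0.99) and PLAU (0.72) to the right and ACPL2 (-0.71) to the left.

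The 9 tested partners of syndecan tails had a median of 0.37 with FGF2, against -0.02 over all genes. SDCBP2 and SYNPO passed the test as higher with FGF2, as did 6.03% of all genes. SDCBP2, a relative of the scaffold syntenin, rose by 0.95 (SE 0.19, adjusted p = 0.0364), or 1.69 with neqc, and its other detected probe gave 0.36. Outside the FGF2 group SDCBP2 read near background, with log2 intensities of 7.65 and 8.08 in -GFs and 7.73 and 7.59 with BMP4. With BMP4 it was detected on 1 array only. It did not pass without -GFs replicate 1 (adjusted p = 0.116), FGF2 replicate 1 (0.204) or FGF2 replicate 2 (0.203). SYNPO, an actin-associated protein that works with syndecan-4, rose by 0.87 (SE 0.16, adjusted p = 0.0306), and did not pass without -GFs replicate 1 (adjusted p = 0.109), FGF2 replicate 1 (0.108) or FGF2 replicate 2 (0.222). Syntenin itself (SDCBP) had 0.42 (adjusted p = 0.546, or 0.0285 with the block). Between the factors, SDCBP2 and SYNPO were called higher with FGF2 than with BMP4 (1.16 and 1.04), as were 2.03% of all genes. SDCBP2 was lost there without FGF2 replicate 1 (adjusted p = 0.169), FGF2 replicate 2 (0.18), BMP4 replicate 1 (0.101) or BMP4 replicate 2 (0.118), and had 2.15 with neqc, and SYNPO was lost without FGF2 replicate 2 (0.191), BMP4 replicate 1 (0.109) or BMP4 replicate 2 (0.107). ACTN1, an actin crosslinker that binds the tail of syndecan-4, had 0.84 between the factors (adjusted p = 0.0986), which passed under 9 of 19 alternatives and reached an adjusted p of 0.411 without FGF2 replicate 2. With BMP4, TIAM1, a RAC activator, had 0.71 and passed the test with the replicate block alone (adjusted p = 0.0495), as did 0.219% of all genes. TIAM1 also had 0.62 with FGF2 (adjusted p = 0.132, or 0.00251 with the block, where 37.7% of all genes passed). Between the factors it differed by -0.10 (adjusted p = 0.841).

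The 6 tested receptors for FGFs and BMPs had a median of -0.42 with FGF2. Among them FGFR2, a tyrosine kinase receptor to which heparan sulfate joins FGFs, was called lower, as were 1.25% of all genes. FGFR2 fell by 1.29 (SE 0.17, adjusted p = 0.0114), from 12.48 and 12.18 in -GFs to 10.97 and 11.11, and its other detected probe gave -0.84. The adjusted p was 0.107 without FGF2 replicate 1 and 0.108 without FGF2 replicate 2. FGFR1 had -0.25 (adjusted p = 0.615). FGFRL1 had -0.58 (adjusted p = 0.12, or 0.0071 with the block) and ACVR2B had -0.67 (adjusted p = 0.116, or 0.00294 with the block). With the block, 19.6% of all genes passed as lower. The 7 tested enzymes of chondroitin sulfate, the other chain that SDC1 can carry, held none past the limma test with FGF2 without the block. Their median was 0.08. None had an unadjusted p under 0.05 by limma, where 2768 of all 11872 genes did, or by the t-test. With the block, CHPF (0.49, adjusted p = 0.0394) and CHST11 (0.42, adjusted p = 0.0316) passed as higher, as did 18.1% of all genes.

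The genes whose pattern over the 6 arrays came closest to SDC1 were E330016A19RIK, PANX1 and FLNC. After each gene was centred on its own mean, they differed from SDC1 by a root mean square of 0.0775, 0.0873 and 0.0914 log2 units, while SDC1 itself varied by 0.508. Their Pearson correlations with SDC1 were 0.989, 0.987 and 0.988 over 6 arrays that share the same 3 treatments. Their log2 fold changes with FGF2 were 0.998, 1.07 and 1.02. As the genes were picked for closeness to SDC1 on these same arrays, such values follow from the choice.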

How the data were processed

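RNA of PA6 monolayers from 3 groups of 2 replicates (-GFs, FGF2 and BMP4, 3 h) was measured on 6 arrays, and samples were grouped by the labels. The authors deposited array intensities, the mean bead brightness of each probe before normalization, with a detection p-value per probe. BeadStudio and GenomeStudio 2011.01 are named in the methods and the submitters' processing notes. A genome build is not given in the sources used here. The table also holds 9 columns of values without a heading and 6 leftover lines, none of which was used.

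The cubic spline normalization of the methods was rebuilt in R 4.3.3, with 452 quantiles per array mapped onto their mean over the 6 arrays, before values were converted to log2. Only probes detected (p under 0.05) on both replicates of some group were kept, and of several such probes the brightest on average stood for the gene. limma 3.58.1 was fitted on all 6 arrays without a block (3 residual degrees of freedom), and p-values were adjusted by Benjamini-Hochberg over all 11872 genes. The labels state that each biological replicate consisted of parallel wells, and arrays with the same number deviated together from their group means (correlation across genes 0.602, 0.741 and 0.579), so the replicate number pairs the arrays. Since nothing says more about how the replicates arose, p-values measure only the spread between these samples, and the number of arrays limits the precision: an exact permutation test of 2 arrays against 2 cannot give a two-sided p under 0.333. The procedure was also run on simulated data with known changes. Simulated arrays were drawn independently of one another, so that run did not cover the shared deviations of arrays with the same number.

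The members and gene lists were chosen with earlier results of these data known. Named are all members with every probe, list genes that passed the test in any comparison and up to 3 others per list, DUSP6 and ID1, and the 3 genes nearest to SDC1. The alternatives were quantile normalization, median scaling, neqc (offset 16), 4 other detection filters, the mean of probes or every probe, the replicate block, trend and robust moderation, no threshold on the fold, a 2-sample t-test and leaving out each array. Protein sequences were not analysed here.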

Additional observations from a re-analysis of the deposited data

How the results depend on the processing

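Of the 9 members, 1 was called with FGF2, 0 with BMP4 and 1 between the factors, and 3 heparan sulfate genes were called with FGF2. With the replicate number as a block, these counts were 1, 0, 1 and 3, and the pairing changed no call of a member. Without a threshold on the fold, 2 members and 6 heparan sulfate genes passed with FGF2, as did 11.8% of all genes. With the block and no threshold on the fold, a setting chosen after seeing the data, 2 members and 17 heparan sulfate genes passed with FGF2. Between the factors 2 members passed. In this setting 37.7% of all genes passed with FGF2 and 34.1% between the factors. Median scaling left 0 members called with FGF2. The mean of the detected probes left 0 with FGF2 and 0 between the factors. The t-test called 0 of all 11872 genes in every comparison, so its 0 for members and heparan sulfate genes says nothing about them. Its unadjusted p was under 0.05 for 2 members with FGF2 and 1 between the factors. By limma, 2 members had such a p in each of these comparisons, as had 2768 and 2525 of all genes. Without 1 array the counts ranged from 0 to 1 for FGF2, from 0 to 1 between the factors and from 1 to 3 for heparan sulfate genes, with HS6ST1 left without FGF2 replicate 2. With BMP4, 0 members were called under every alternative. Few genes of any kind were called there: of all 11872, 1 in the main fit, 10 with the block and 26 with the block and no threshold on the fold.

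Estimates near 0 changed sign. With BMP4 under median scaling they were -0.0822 for SDC1, -0.0304 for SDC2, -0.0396 for SDC3, -0.0003 for GPC1 and -0.0446 for GPC4. SDC4 with FGF2 was -0.03 under this scaling. The median over all genes was then -0.0677 with BMP4 and -0.097 with FGF2. In the main fit that median was 0.002 with BMP4 and -0.02 with FGF2. neqc gave -0.0025 for SDC1 with BMP4 and 0.10 for GPC6 with FGF2, with and without the block. Leaving out 1 array gave ranges of -0.25 to 0.26 for SDC1 with BMP4, -0.35 to 0.0545 and -0.13 to 0.27 for SDC2 with FGF2 and BMP4, -0.0553 to 0.16 for SDC3 with BMP4 and -0.26 to 0.39 for SDC4 with FGF2. For GPC4 they were -0.55 to 0.0655 with FGF2, -0.45 to 0.49 with BMP4 and -0.73 to 0.21 between the factors, and for GPC6 -0.49 to 0.43, -0.36 to 0.55 and -0.51 to 0.26. The cause was not tested. Over all genes, FGF2 calls numbered 419, against 794 with neqc, 1143 with neqc and the block, 184 without FGF2 replicate 1 and 106 without FGF2 replicate 2, and median scaling called 208 of 417 higher against 271 of 419. A lone array left in a group was assumed to vary like the other groups. GPC2 and GPC3 were too near background for a change in them to be measured.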
